A study of Drosophila melanogaster with 3 samples.

Results

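Cytosolic ribosomal protein genes encode the proteins of the ribosome that works in the cytoplasm, and this account describes where putzig sat at them. The genes were taken as every protein-coding gene of the Ensembl annotation whose symbol begins with RpL or RpS and a digit, or with RpLP and a digit, together with sta, which encodes a small subunit protein. The rule found 93 genes among 13945 protein-coding genes on the chromosome arms that carried peaks, 54 of the large subunit and 39 of the small subunit. It used symbols only and no measured value. Of the 93 genes, 14 were listed as duplicates of 13 other members, which are called main genes here. The list follows names and takes in RpL7-like, RpL24-like and RpLP0-like. Whether the proteins of these genes stand in for those of the main genes in the ribosome was not checked.

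The study mapped putzig (pzg), a zinc finger protein, on chromatin of whole Drosophila melanogaster embryos by chromatin immunoprecipitation and sequencing (ChIP-seq). There was 1 group of 3 biological replicates: embryos of both sexes, collected over 0 to 24 h, from a transgenic line that stably expresses putzig with GFP at its C-terminal end. The free description of each library names an input control, while the antibody and assay fields name putzig ChIP-seq, and the libraries were read here as those fields give them. No untagged line, other stage or treatment was compared, so the results are positions and relative peak signals in 1 kind of embryo, averaged over all its cells and stages.

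Every ribosome holds 1 copy of nearly every ribosomal protein, so a growing cell makes these proteins in matched and large amounts. In Drosophila most of their genes start transcription at a pyrimidine-rich initiator called the TCT motif, in place of the common initiator, and they are known to depend on the TBP-related factor Trf2 more than on TBP. Putzig was isolated in a complex with Trf2 and with Dref, the factor that binds the DNA replication-related element (DRE), which makes these promoters a natural place to look for it.

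The start sites of 4 of the 10 strongest members, of 3 of the 10 weakest bound members and of 1 member without a peak are shown, all 8 chosen because they carry the motif, to let the initiator be seen beside the signal reported further on. Each line runs 5′ to 3′ on the gene's own strand, and capitals mark the TCT motif. It covers 15 bases upstream to 14 bases downstream of the transcription start site (TSS) with the most annotated transcripts. Ties went to the most upstream TSS, and which TSS the embryos used was not measured. The sequences come from the RefSeq genome (Release 6, dm6), and the positions are chr2L:19009223-19009252 (minus strand) for RpL30, chr3L:1668640-1668669 (minus) for RpL23A, chr3L:8600991-8601020 (plus) for RpL14, chr3R:11221879-11221908 (plus) for RpL3, chr3R:27922806-27922835 (plus) for RpL4, chr2L:4227684-4227713 (plus) for RpL40, chrX:7901317-7901346 (minus) for RpS6 and chrX:16637879-16637908 (plus) for RpS19a.
RpL30: atttccgcctgttcttccTCTTTCttttgc
RpL23A: aactgcccctcagttttCCTTTTcatttct
RpL14: ctgtcaaaaaagtTCTTTCcttctctttct
RpL3: cggaagtcggaatcgttTCTTTTccgtttt
RpL4: agccatttccggcagctcTCTTTCtttctt
RpL40: tcggcggcggccacactcTCTTTTcccttt
RpS6: tacttcctcctatcggTCTTTTtcaaccct
RpS19a: ccaacttcacgcgccttgtTCTTTTttccg
Of the 10 strongest members, RpL30, RpL23A, RpL14, RpL3 and RpL13A had the motif within 5 bp of this TSS, and RpL7, RpL41, RpS29, RpL11 and RpS30 did not.

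Duplicates often had a different start. The next lines show, over the same span, 3 duplicates without a peak and 1 duplicate with one, RpL24-like. None of these 4 has a TCT motif within 20 bp of any TSS, so all letters are in lower case. They lie at chr3R:15037351-15037380 (plus) for RpL10Aa, chr3R:23933516-23933545 (minus) for RpS19b, chr2L:9436789-9436818 (plus) for RpS28-like and chr3R:11431568-11431597 (minus) for RpL24-like.
RpL10Aa: tacaatacatttcaaattttgtgcttgtag
RpS19b: acttgccaatcgtccattttgactaaagtc
RpS28-like: tgtcatttgatattgtaagttacatacccc
RpL24-like: ctgctgactgccgatacattttcatatttc

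Putzig was found at the start of nearly all ribosomal protein genes. A gene was called bound when a summit of the authors' reproducible peak list lay within 250 bp of any of its annotated TSSs. By this rule 85 of the 93 genes (91.4%) were bound, against a background of 42.6% of all protein-coding genes. Among the 6522 strongest peaks of each replicate, 85, 85 and 86 members were bound in replicates 1, 2 and 3, a mean of 91.8% ± 0.621 (SD, n = 3). The share of all protein-coding genes was 42.4% in replicate 1, 42.3% in replicate 2 and 41.7% in replicate 3. In all 3 replicates at once, 84 members were bound. The 85 bound members had 85 distinct summits, so no summit was counted for more than 1 of them.

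Binding was common to both subunits. In the large subunit 51 of 54 genes were bound (94.4%), and in the small subunit 34 of 39 (87.2%). The mitochondrial ribosome, built from a separate set of nuclear genes, gave a like share, with 69 of 73 of its protein genes bound (94.5%). A high share of bound genes was therefore not particular to the cytosolic set. Among the 652 strongest summits of the reproducible list the share was also high, since 28 of 93 ribosomal protein genes (30.1%) had such a summit against 8 of 73 mitochondrial ribosomal protein genes and 6.12% of all protein-coding genes. Of these 28 genes, 21 were counted as large and 7 as small subunit genes.

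Peaks at bound ribosomal protein genes were also stronger. The signal is the value the authors' caller gave each peak, on a scale it does not name, and is compared only within a list. Over the 85 bound genes the median signal was 2649, with quartiles of 1608 and 3884 and a range of 492 to 12112, against a median of 1505 over the 5854 other bound protein-coding genes. The ratio of the medians was 1.76, or 0.82 on the log2 scale. Within the replicates the log2 ratio was 0.80, 0.73 and 0.86, a mean of 0.80 ± 0.065 (SD, n = 3), higher in 3 of 3. Against the 69 bound mitochondrial ribosomal protein genes, whose median was 1161, the log2 ratio was 1.19 in the reproducible list and 1.11 ± 0.040 over the replicates (SD, n = 3). An exact two-sided sign-flip permutation test over the replicates gave p = 0.25 for both ratios, the smallest value that 3 replicates allow. Most ribosomal protein genes thus lay above the median gene, while single members ranged from well below it to rank 3 of the list.

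**Figure D1:**
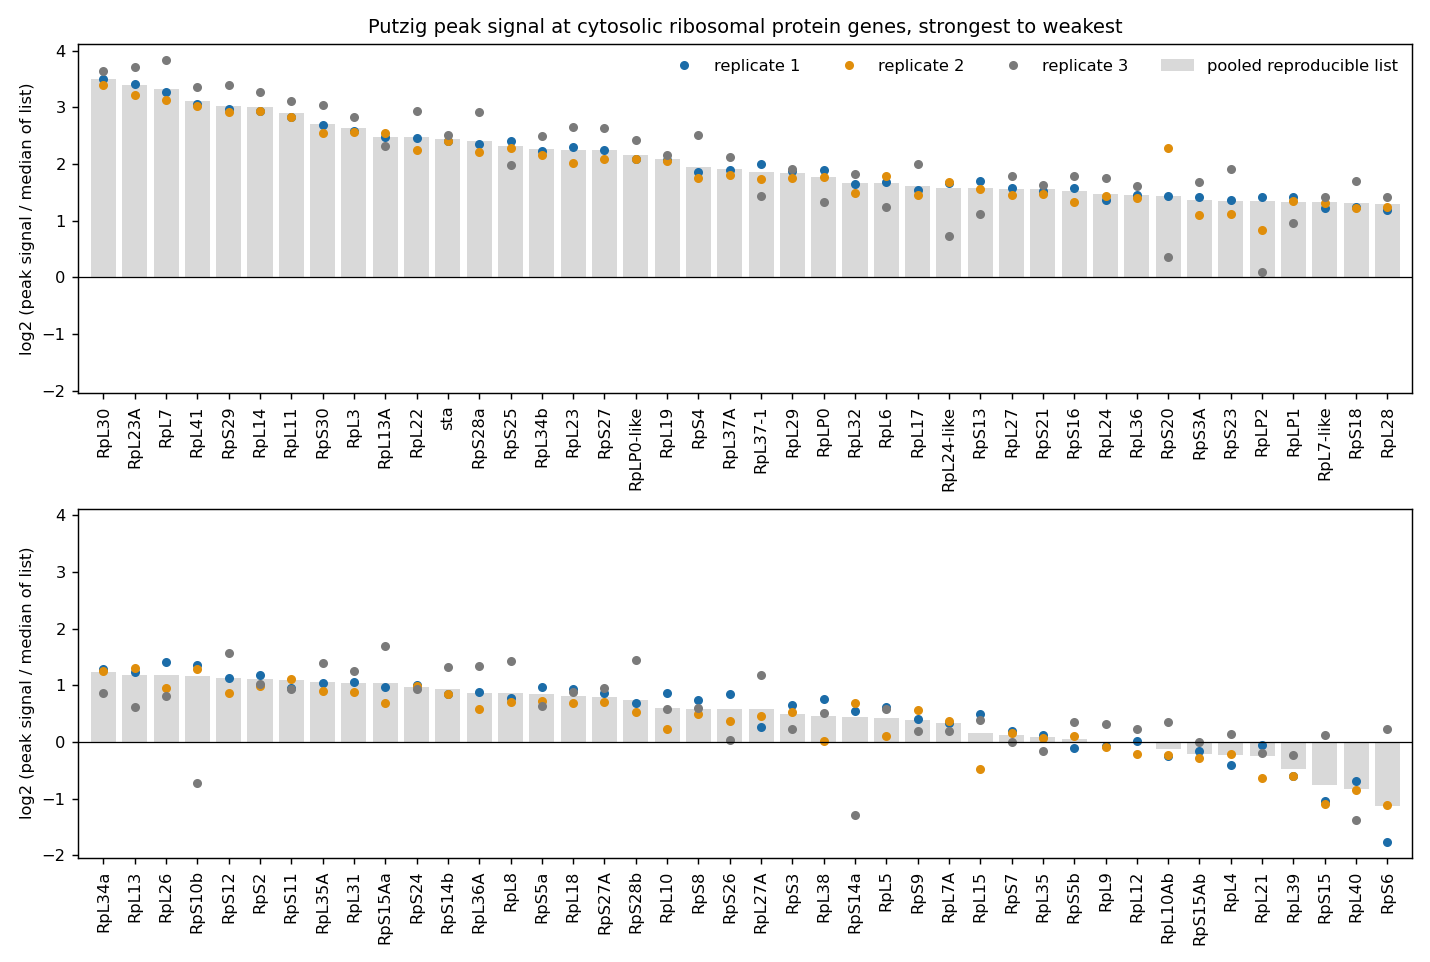
Peak signal at the 84 ribosomal protein genes bound in all 3 replicates, ordered by the pooled reproducible list (grey bars) with replicates 1, 2 and 3 as points. The vertical axis is log2 of the signal over the median of the list it comes from, so 0 is the median peak. Most members lie above 0 in every list, and RpS20, RpS10b and RpS14a show a replicate far from the others.

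Of the 10 strongest members 8 were large subunit genes, as were 51 of all 85 bound members and most of the 10 weakest. RpL30, a large subunit protein, ranked 3 of the 6522 summits, with a signal of 12112 in the reproducible list and of 5483, 4717 and 1973 in replicates 1, 2 and 3, where it ranked 3, 3 and 10. RpL23A, which lies near the exit of the peptide tunnel, had a signal of 11348, rank 5 in the reproducible list and ranks 5, 7 and 8 in the replicates. RpL7 had a signal of 10822, rank 11 and ranks 12, 13 and 5. These 3 stayed among the first 13 peaks in every replicate.

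RpL41, the smallest ribosomal protein, had a signal of 9248 (rank 20), and RpS29, a small subunit protein, had 8795 (rank 24). RpL14 had 8645, RpL11 had 8003, RpS30 had 7019, RpL3 had 6644 and RpL13A had 6022. RpL11 joins RpL5 and the 5S RNA in a particle that is added to the growing large subunit. The partners stood apart here: RpL5 had a signal of 1448 and rank 2486, with 747, 480 and 236 in the replicates, while RpL11 ranked 37 with 3475, 3182 and 1370. The 3 replicates all placed RpL11 above RpL5.

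The weakest bound members came from both subunits, most of them from the large one. RpS6, the substrate of the S6 kinase in TOR signalling, had the lowest signal, 492 at rank 4975, with 144, 207 and 187 in replicates 1, 2 and 3, where it ranked 5755, 5083 and 2821. RpL40, which is made as a fusion to ubiquitin, had 604 at rank 4554 and 301, 248 and 60.8 in the replicates. RpS27A, the other ubiquitin fusion, had 1874 at rank 1825. RpS15 had 636, RpL39 had 775, RpL21 had 907 and RpL4, which lines the peptide tunnel, had 914. RpS15Ab had 935, RpL10Ab had 985, RpL12, at the base of the stalk, had 1067 and RpL9 had 1083. All 10 of these weakest bound members, RpS6 to RpL9, lay below the median of the other bound protein-coding genes, 1505, in the reproducible list.

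The stalk of the large subunit, which recruits the GTPases of translation, is made of RpLP0, RpLP1 and RpLP2. RpLP0 had a signal of 3680, with 1819, 1529 and 397 in the replicates. RpLP1 had 2716, with 1300, 1141 and 307. RpLP2 had 2737, with 1296, 796 and 168. RpLP1 and RpLP2 lay near the median member of the reproducible list and RpLP0 somewhat above it. The small subunit gene sta was higher than all 3, at 5815 with 2592, 2372 and 902.

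The order of the members was similar in the replicates, most of all in replicates 1 and 2. As a description over the members with an entry in both full lists, Spearman's rho of the signal was 0.98 between replicates 1 and 2 (86 genes), 0.86 between 1 and 3 (84 genes) and 0.85 between 2 and 3 (85 genes). All 3 share the control alignment behind the peak calls. By the ratio of the highest to the lowest rank, the most variable members were RpS20, RpS10b and RpL13A. RpS20 ranked 828, 126 and 2599 in replicates 1, 2 and 3. Its reproducible peak held 2 summits, with a signal of 2927 at −55 bp from the TSS (negative is upstream) and of 5118 at −258 bp. The stronger one lay at −75 bp from the neighbour CG17271, and only in replicate 2 did it come within 250 bp of the RpS20 TSS. RpS10b ranked 941, 952 and 4462, with summits at −241, −190 and −10 bp. In replicate 3 a stronger summit, of 167 at rank 3117, lay outside the window, at −286 bp from the TSS with the most annotated transcripts. RpL13A ranked 99, 64 and 265, a small span in places. In places RpS14a (2262, 1951 and 5402) and RpS6 moved much farther.

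Large subunit genes had the higher median signal. It was 2737 over 51 bound large subunit genes and 2316 over 34 bound small subunit genes, a log2 ratio of 0.24. Within replicates 1, 2 and 3 the log2 ratio was 0.34, 0.36 and 0.38, a mean of 0.36 ± 0.020 (SD, n = 3), with p = 0.25 by the exact two-sided sign-flip permutation test, the smallest p that 3 replicates allow. The direction held in 3 of 3 replicates, but the difference was small beside the spread among genes: the quartiles were 1618 and 4323 for large and 1609 and 3147 for small subunit genes. The lower quartiles were near each other, and the upper part of the large subunit set reached higher.

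**Figure D2:**
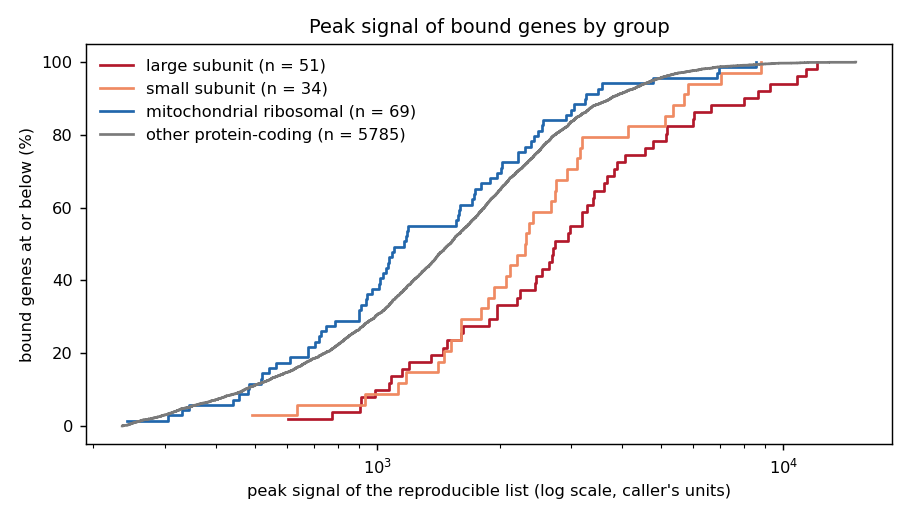
Cumulative share of bound genes (vertical axis, %) at or below a peak signal of the reproducible list (horizontal axis, log scale, units of the authors' caller) for large subunit, small subunit, mitochondrial ribosomal and other protein-coding genes. Both cytosolic curves lie to the right of the other groups over most of the range, with medians of 2737 and 2316 against 1161 for the mitochondrial genes.

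Some members shared a summit with a neighbour, less often than other bound genes did, and these members had the stronger peaks. For 27 of the 85 bound members (31.8%) the summit also lay within 250 bp of the TSS of another protein-coding gene, against 39.9% of the 5854 other bound genes. For 25 of the 27 that neighbour lay on the opposite strand. The median signal was 3611 for the 27 members with a shared summit and 2229 for the 58 with a summit of their own, a log2 ratio of 0.70, and 0.77 ± 0.11 over the replicates (SD, n = 3; exact permutation p = 0.25, the smallest possible). Other bound genes went the same way. The 3518 with a summit of their own had a median of 1289, against 1505 over all 5854. Stronger shared summits were therefore not particular to the members. For the members, the summit was nearer to the TSS of the ribosomal protein gene in 16 of the 27, nearer to the neighbour's in 10 and equally near in 1. RpL7 (shared with Ripalpha), RpL41 (NaCP60E), RpL14 (Nelf-E, a subunit of the pausing factor NELF), RpL3 (CG6693) and RpL13A (Dph4 and Spec2) were among the 10 strongest members, and RpL13 shared its summit with Dref itself, at 15 bp from the Dref TSS.

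The difference from other genes was about as large without the shared summits. Among genes whose summit was near no other coding gene, the median was 2229 for 58 ribosomal protein genes and 1289 for 3518 other genes, a log2 ratio of 0.79, and 0.71 ± 0.10 over the replicates (SD, n = 3), higher in 3 of 3. Hosting small nucleolar RNAs in introns, a common trait of these genes, went with nearly equal medians, which were 2649 for 29 hosts and 2609 for 56 bound members that host none. The log2 ratio of hosts over non-hosts over the replicates was −0.020 ± 0.18 (SD, n = 3) and its sign differed between them. All 29 hosts were bound.

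Main genes and duplicates differed chiefly in whether they were bound at all. Of the 13 main genes 12 were bound (92.3%), and of the 14 duplicates 8 were (57.1%). These 8 include RpL7-like, RpL24-like and RpLP0-like, whose place in the ribosome was not checked. The share of 57.1% depends on counting them as duplicates and would be lower without them. The share among all protein-coding genes was 42.6%, so the duplicates' count lay much nearer to it than that of the other members, of which 77 of 79 were bound. The 6 unbound duplicates were RpL10Aa, RpL22-like, RpL37-2, RpS10a, RpS19b and RpS28-like. RpL22-like and RpS19b are known for expression in the germ line, and a link between such expression and the missing peak was not tested. No list held a summit within 1000 bp of RpL10Aa or RpL22-like, and RpL37-2 had only 1 background entry 696 bp downstream, in replicate 3. RpS10a had entries of 40.7 and 37.6 in replicates 1 and 2, at ranks 11891 and 11612, far below the strongest 6522.

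Of the 12 bound main genes 3 shared the summit with another coding gene, and of the 8 bound duplicates 6 did. RpS28a had a signal of 5693 with a summit at −138 bp from its own TSS and −56 bp from that of Axn, the scaffold of Wnt signalling. RpLP0-like shared its summit with 14-3-3zeta, RpL24-like with CG5276, RpL34a with Trmt61, RpS15Ab with Lsm10 and RpL7-like with CG34164. RpS5b and RpS14b were the other 2 bound duplicates, with a summit near no other coding gene. A peak counted for these 6 duplicates cannot be told apart from one at the neighbouring gene.

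In the 8 pairs with both genes bound, neither side was always higher. RpL7 had 10822 and RpL7-like 2693, with log2 ratios of 2.04, 1.81 and 2.43 in the replicates (mean 2.09 ± 0.31, SD, n = 3). RpS15Aa had 2208 and RpS15Ab 935 (1.26 ± 0.38), RpL34b had 5168 and RpL34a 2538 (1.16 ± 0.42), and RpS5a had 1938 and RpS5b 1124 (0.65 ± 0.40). In these 4 pairs the main gene was higher in 3 of 3 replicates. RpS28b had 1806 and RpS28a 5693 (−1.60 ± 0.11), and RpLP0 had 3680 and RpLP0-like 4782 (−0.53 ± 0.50). Both were lower at the main gene in 3 of 3 replicates, the RpLP0 difference by about its own SD.

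The remaining pairs were not separated beyond the spread between replicates. RpL24 had 2978 and RpL24-like 3197, with log2 ratios of −0.30, −0.25 and 1.02. RpS14a had 1462 and RpS14b 2071, with −0.30, −0.15 and −2.61, and a stronger summit at RpS14a (2675) lay at −343 bp, and at −48 bp from Dhdds. The median over pairs was 0.34 in the reproducible list and 0.93, 0.61 and 0.65 in the replicates (mean 0.73 ± 0.18, SD, n = 3; exact permutation p = 0.25, the smallest possible), where RpS10b and RpS10a added 1 pair in replicates 1 and 2. RpS5a and RpS5b were the only pair in which neither summit was shared.

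**Figure D3:**
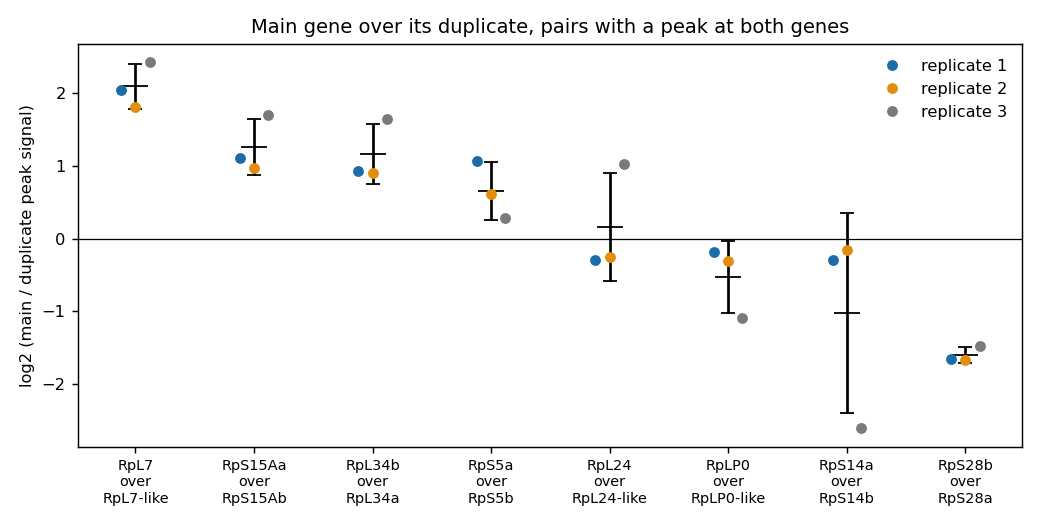
Log2 of the main gene's peak signal over its duplicate's (vertical axis) in replicates 1, 2 and 3 (points) for the 8 pairs bound at both genes, with the mean and SD in black. RpL7, RpS15Aa, RpL34b and RpS5a lie above 0 in all replicates, and RpLP0, RpS14a and RpS28b lie below 0 in all replicates.

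RpS19a, the main gene of RpS19b, was unbound and had a strong summit a little farther off. It encodes a small subunit protein whose human counterpart is mutated in Diamond-Blackfan anaemia. A reproducible summit of 2312 (rank 1313) lay at −462 bp from its TSS, and at −18 bp from the TSS of Rok. RpS19b had one of 2357 at −338 bp, and at −44 bp from CG5854. RpS28-like had one of 866 at 534 bp downstream, and at −131 bp from numb. In replicate 3 alone RpS19a also had a summit at its start among the strongest 6522, of 137 at −12 bp. With a window of 500 bp 88 members were bound (46.6% of all protein-coding genes), and with 1000 bp 89 (49.1%).

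Summits lay just upstream of the start. Over the 85 bound members the median offset from the nearest TSS was −51 bp, with a range of −227 to 80 bp, and 74 summits were upstream. The replicates gave medians of −54, −50 and −35 bp. The position did not set these genes apart from others, whose median was −44 bp, or from the mitochondrial ribosomal protein genes at −38 bp. Peaks were wider, with a median width of 555 bp for ribosomal protein genes and 425 bp for other bound genes.

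**Figure D4:**
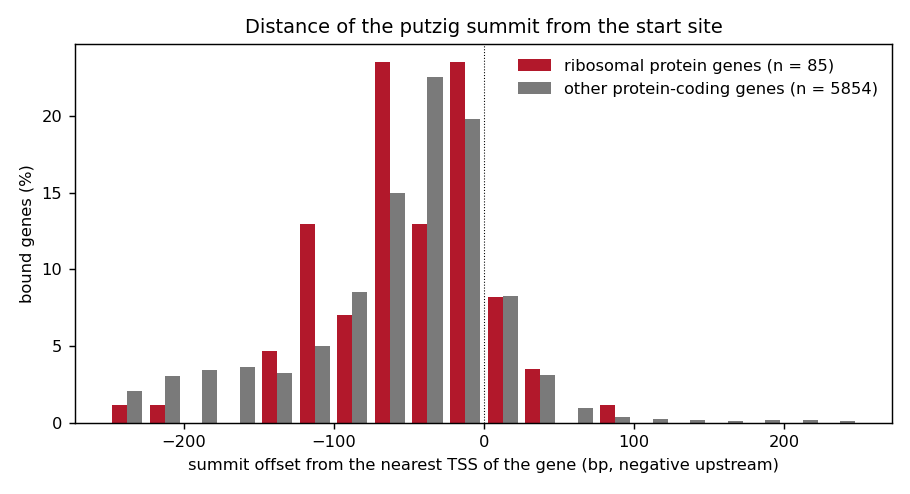
Distance of the summit from the nearest TSS of the gene (horizontal axis, bp, negative upstream, bins of 25 bp) as a share of bound genes (vertical axis, %) for ribosomal protein genes and other protein-coding genes. Most summits of both groups fall from 100 bp upstream to the TSS, with medians of −51 and −44 bp.

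The TCT initiator was the clearest sequence that these genes shared. A TCT motif was taken as TCTTTC on the sense strand, with C also allowed as its first letter and T as its last, and was placed by its second letter. Within 5 bp of the TSS with the most annotated transcripts, 40 of 93 ribosomal protein genes held it (43.0%, Wilson 95% interval 33.4 to 53.2), against 165 of 13852 other genes (1.19%). Within 20 bp these counts were 65 (69.9%) and 689 (4.97%). Within 20 bp of any annotated TSS of the gene they were 82 (88.2%) and 980 (7.07%). On the opposite strand, within 5 bp, 0 of 93 ribosomal protein genes held it, against 1.06% of the others. A count of 0 allows up to 3.23% as a rough upper bound, which is not a Wilson limit.

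The motif sat a few bases inside the annotated transcript. The second letter fell 2 to 9 bp downstream of the TSS in 57 members (61.3%) and from 5 bp upstream to the TSS in 2 (2.15%), against 1.03% and 0.628% of other genes. None had it exactly at the TSS. The position with the highest share was 4 bp downstream, at 15.1% of members.

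**Figure D5:**
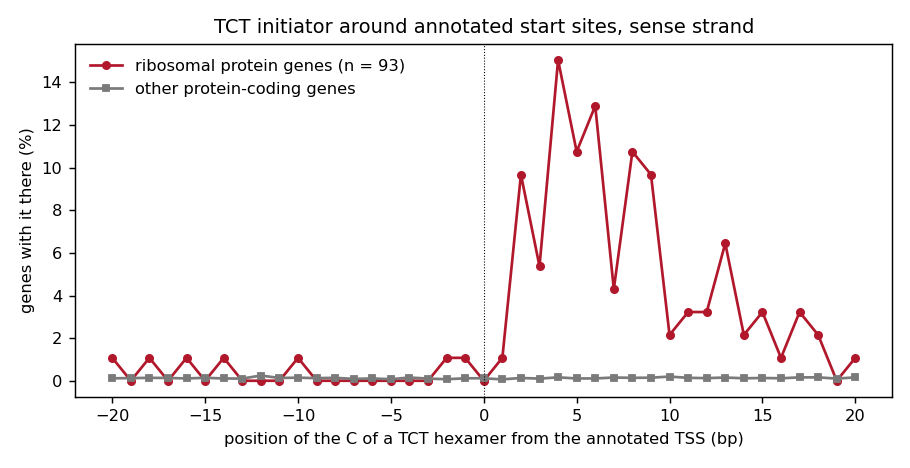
Share of genes (vertical axis, %) with the second letter of a TCT motif at each position from the annotated TSS (horizontal axis, bp, negative upstream) for ribosomal protein genes and other protein-coding genes. The ribosomal protein genes rise from 2 to 9 bp downstream, with 15.1% at 4 bp, while other genes stay below 1% throughout.

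For several strongly bound members the motif stood at an annotated TSS other than the one chosen by the number of annotated transcripts. That choice took the most upstream TSS in a tie and is no measure of use. Lines for 4 of them are given because the chosen TSS has none within 20 bp. Each covers 15 bases before to 14 bases after the second letter of the motif, in capitals, 5′ to 3′. The positions are chr2L:10201088-10201117 (plus) for RpL7, chr3R:9778085-9778114 (plus) for RpS29, chr3R:20850582-20850611 (plus) for RpS30 and chr3L:22076081-22076110 (plus) for RpLP0.
RpL7: tagcacgtttccggTCTTTCtttccctttc
RpS29: tgccatcgctagttCCTTTTcttttcgaat
RpS30: ttctgcgccatcttTCTTTTtcgggatccg
RpLP0: gccgccaacttcacTCTTTCcgttctgtga

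Counted over all TSSs, 76 of the 79 members that are no duplicate had a TCT motif within 20 bp (96.2%), and 6 of the 14 duplicates did (42.9%). The 3 members without it that are no duplicate were RpS2, RpS20 and sta. The 6 duplicates with it were RpL7-like, RpL34a, RpL37-2, RpS5b, RpS14b and RpS28a. Mitochondrial ribosomal protein genes held it in 3 of 73 cases (4.11%). Counting all TSSs gives genes with several annotated TSSs more places to hold the motif. At the TSS with the most annotated transcripts the gap was narrower. Within 20 bp of it 59 of the 79 (74.7%) and 6 of the 14 duplicates (42.9%) held the motif. Within 5 bp the counts were 37 (46.8%, Wilson interval 36.2 to 57.7) and 3 (21.4%, 7.57 to 47.6), and the intervals overlapped.

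Members with the TCT motif were not the more strongly bound ones. Of the 40 members with TCT within 5 bp 38 were bound, and of the 53 without it 47 were. The median signal was 2044 with the motif and 2927 without, a log2 ratio of −0.52, and −0.52 ± 0.088 over the replicates (SD, n = 3; exact permutation p = 0.25, the smallest possible). With the motif taken within 20 bp of the same TSS the ratio was −0.34 (62 bound members against 23), with −0.34, −0.44 and −0.09 in the replicates, lower in 3 of 3. With the motif taken within 20 bp of any TSS it was −0.27 (79 bound members against 6), and the replicates disagreed in sign, with −0.31, −0.78 and 0.45. Among other genes, 58 of 165 with TCT within 5 bp were bound (35.2%), and 42.3% of those without it.

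Usual core promoter elements of other genes were rare at ribosomal protein genes. The initiator TCAGT with its A within 5 bp of the TSS was found in 1 of 93 (1.08%), against 10.6% of other genes. TATAAA from 40 to 20 bp upstream was found in 1 of 93 (1.08%), against 7.91%. The letters CAGCTG, an E-box, occurred on either strand in the window from 250 bp upstream to 50 bp downstream in 9 of 93 (9.68%), against 17.8% of other genes and 54.8% of the mitochondrial ribosomal protein genes. The 2 ribosomal protein sets, both bound almost throughout, thus differed in these letters.

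The palindrome TATCGATA of the DRE was found in the same window in 28 of 93 ribosomal protein genes (30.1%, Wilson 95% interval 21.7 to 40.1), against 9.10% of other genes and 20.5% of mitochondrial ribosomal protein genes. GGTCACAC, the core of the Motif 1 found at many Drosophila housekeeping promoters, was found on either strand in 14 of 93 (15.1%), against 7.75% of other genes. CCACACT, letters that are not contained in GGTCACAC and were searched on either strand after promoter sequences had been looked at, was found in 15 of 93 (16.1%), against 4.53%. These comparisons set bound and unbound genes together. Within 100 bp of the summits of bound genes, the DRE was found at 28.2% of ribosomal protein genes against 17.3% of other genes, CCACACT at 12.9% against 6.22%, and Motif 1 at 14.1% against 16.1%, so Motif 1 was not more frequent there. The first base of the DRE lay at a median of −60 bp over 32 sites, against −44 bp at other genes. Of the Motif 1 sites 10 of 14 (71.4%) lay within 50 bp upstream of the TSS, against 34.6% at other genes.

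Examples of both elements at bound members follow, each on the gene's own strand, 5′ to 3′, with 11 bases to each side and capitals for the element. The DRE examples are RpS25 (chr3R:11216328-11216357, minus), RpL36 (chrX:629459-629488, minus) and RpS6 (chrX:7901368-7901397, minus), a strong, a middle and the weakest bound member.
RpS25 DRE: ccaccaccaacTATCGATAggcaggcgagc
RpL36 DRE: gcccgcccgccTATCGATAataaggcacga
RpS6 DRE: tgagcacgaacTATCGATAtgcggcggtac
The Motif 1 examples are RpL30 (chr2L:19009261-19009290, minus), RpL37A (chr2L:5070979-5071008, plus) and RpLP1 (chr2L:419923-419952, plus).
RpL30 Motif 1: atccccccgtcGGTCACACcaacacaaacg
RpL37A Motif 1: tatcgagcggcGGTCACACttttcgctctt
RpLP1 Motif 1: gtcatcggcgcGGTCACACtgcatatcaac

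A longer stretch is given for the 2 strongest members, RpL30 (chr2L:19009223-19009387, minus) and RpL23A (chr3L:1668640-1668804, minus), as examples of what lay under a strong putzig peak. It runs from 150 bases upstream to 14 bases downstream of the TSS with the most annotated transcripts. Capitals mark Motif 1 and TCT in RpL30 and TCT in RpL23A. The summit lay at −123 bp from this TSS at RpL30 and at −116 bp at RpL23A.
RpL30: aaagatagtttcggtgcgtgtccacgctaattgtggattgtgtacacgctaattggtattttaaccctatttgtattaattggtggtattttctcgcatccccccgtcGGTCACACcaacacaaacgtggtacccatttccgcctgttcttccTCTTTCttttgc
RpL23A: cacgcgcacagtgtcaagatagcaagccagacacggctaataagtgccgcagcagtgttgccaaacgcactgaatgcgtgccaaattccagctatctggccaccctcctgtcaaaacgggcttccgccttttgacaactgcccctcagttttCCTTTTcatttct
RpL23A holds neither of the 2 eight-letter elements and still ranked 5 in the list.

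All 28 members with a DRE were bound, and 57 of the 65 without it (87.7%). Among other genes 87.3% of those with a DRE were bound, and 37.8% of those without it. The DRE thus went with binding in the genome at large, while ribosomal protein genes were bound at a high share with and without it. The median signal of bound members was 2671 with a DRE and 2457 without it, a log2 ratio of 0.14 ± 0.049 over the replicates (SD, n = 3). With Motif 1 it was 3293 over 12 bound members and 2440 over 73 without, 0.49 ± 0.078, and among other genes the same ratio was 0.38 ± 0.027. With CCACACT it was 2210 over 13 bound members and 2704 over 72 without, −0.29 ± 0.19, whereas among other genes it was 0.38 ± 0.070. Each of these ratios had the same sign in 3 of 3 replicates, with an exact permutation p of 0.25, the smallest possible.

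Genes that serve the ribosome in other ways were bound about as often. Of 45 listed genes for elongation factors, ribosome-associated proteins, small nucleolar ribonucleoproteins, ribosome assembly and RNA polymerase I, 42 were bound, with a median signal of 1961, and 12 (26.7%) had one of the 652 strongest summits. Of all protein-coding genes 42.6% were bound, and 6.12% had one of those summits. All 7 elongation factor genes were bound, with eEF5 at 5014 and eEF1alpha1 at 3317 and the weakest, eEF1alpha2, at 321. All 8 small nucleolar ribonucleoprotein genes were bound, 4 of them by one of the 652 strongest summits and with a median signal of 2627, close to the 2649 of the ribosomal protein genes. They were led by Nop10 (6216) and Fib (5989), the methylase fibrillarin. All 18 assembly genes were bound, led by RIOK2 (5401). RNA polymerase I and its factors were the exception, with 5 of 8 bound (62.5%) and Tif-IA, TAF1B and TAF1C-like unbound. That share, over few genes, was still above the 42.6% of all protein-coding genes. A TCT motif within 5 bp of the TSS was found in 3 of the 45, eEF2, Rack1, which sits on the small subunit, and Non1.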

How the data were processed

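Putzig-eGFP ChIP-seq was measured in 3 biological replicates of 1 group of whole embryos. The authors deposited peak lists in dm6, with the peak signal of their caller in column 7: 1 list per replicate (30000 entries each, background included), 1 of the pooled replicates, and 1 reproducible list of 6522 summits thresholded by the irreproducible discovery rate, per the deposited notes. The notes pair every replicate with a control alignment. The sources used here name no aligner or caller and no scale for the signal. Every reproducible entry was among the 6522 strongest of the pooled list, so the reproducible list is not independent of the replicates. Read depth is unknown. The spread between the 6522 strongest peaks of each replicate served as the error, and signals were compared only within a list.

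Genes and TSSs came from Ensembl release 115 and sequence from the RefSeq genome of the same assembly. A gene took its strongest summit within 250 bp of any TSS, and its offset from the nearest TSS. Ratios are log2 ratios of medians, given as mean and SD over replicates, with an exact sign-flip permutation test. Python 3.11.15, numpy 2.4.6 and scipy 1.17.1 were used, and the functions were tested on simulated lists. In the windows of the 8 unbound genes all 36-base words were unique in the genome. Genes named are the 10 strongest, 10 weakest and unbound members, the duplicate pairs, 9 members listed by name, and the 3 with the most variable rank. A few items under this rule are not reported here. Other members and neighbours were named after their values were seen. The members and lists were chosen with earlier results of these data known. Alternatives covered the window, the TSS, the peak set, shared summits and the motif windows. Wilson intervals cover counting error only. The labels call the replicates biological and say no more of how they were collected, so p-values measure only the spread between these samples.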

Additional observations from a re-analysis of the deposited data

How the results depend on the processing

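The number of bound members (85) fell to 68 with a 100 bp window, where 35.0% of all protein-coding genes were bound. It was 76 among peaks above the median signal, and 82 to 89 under the other windows, TSS choice, peak set and left-out replicates. Of all protein-coding genes, 46.6% were bound with a 500 bp window and 49.1% with 1000 bp. For peaks above the median signal, the other TSS choice and left-out replicates no such share is given here. Their counts alone therefore do not show whether the excess over all genes changed. The shares of members with a DRE, Motif 1 or CCACACT kept within their intervals. The excess over other genes did not hold for Motif 1 around summits of bound genes, at 14.1% of members against 16.1% of other genes, and narrowed for the DRE, at 28.2% against 17.3%. The log2 ratio of ribosomal protein genes over other genes (0.82) was 0.66 with a 100 bp window, 0.40 among peaks above the median signal, and 0.73 to 0.78 when 1 replicate was left out. Large over small subunit genes (0.24) gave 0.12 with 100 bp, 0.32 with 500 bp, 0.32 with 1000 bp, 0.43 above the median signal, 0.36 in the replicates' own lists and 0.22 to 0.24 when 1 replicate was left out. The median offset of −51 bp was −29.5 bp with a 100 bp window, which by construction leaves out far summits. Main genes over duplicates (0.34) gave 0.73 in the replicates' lists, 1.01 with 100 bp, 0.63 to 0.79 when 1 replicate was left out, and 0.79 in the 1 pair with neither summit shared. The TCT share of 43.0% was 0% exactly at the TSS, 62.4% within 10 bp, 69.9% within 20 bp, 32.3% at the most upstream TSS, 88.2% within 20 bp of any TSS and 0% on the opposite strand. The settings on shared summits, any TSS and CCACACT were chosen after seeing the data. The cause of these moves was otherwise not tested. No paired analysis was possible because there is 1 group. Peak lists hold no reads, so faint binding below the end of a list, and counting error at each peak, could not be measured.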

Other observations

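The members were spread over all the arms with peaks. On 3R 20 of 23 were bound, with a median signal of 3299 in the reproducible list. On 2R 19 of 21 were bound (2737), on 2L 18 of 19 (2392), on 3L 13 of 14 (2359) and on X 14 of 15 (2139). RpS3A, the only member on chromosome 4, was bound with a signal of 2757. Over all arms together, 42.6% of protein-coding genes were bound, with a median signal of 1517. Other genes are not split by arm here, so these values do not tell members from their arm. These medians are descriptions of few genes each, and differences between arms were not tested.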
